A study of Mus musculus with 24 samples.

Results

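The genes described here are 44 enzymes of hepatic amino acid breakdown, taken as a fixed list of gene symbols from the 23972 genes in the deposited liver count table. The genes were grouped by their function, the list was chosen with earlier results of these data known, and all 44 genes were found and tested. It holds 6 enzymes of the urea cycle, 7 transaminases and related glutamate enzymes, 5 enzymes of tyrosine breakdown, 6 of tryptophan, 4 of histidine, 5 of serine, threonine, and glycine, 8 of branched-chain amino acids, and 3 of proline and lysine.

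Liver RNA-Seq was carried out in 24 female mice, of which 7 were vehicle-treated controls, 3 were FGF21-treated controls, 6 were vehicle-treated *Lmna* ADKO mice, and 8 were FGF21-treated *Lmna* ADKO mice. All mice carried *Lmna* alleles with loxP sites around exons 10 and 11. Controls (*Lmna* fl/fl) lacked Cre, and *Lmna* ADKO mice also carried an *Adipoq*-Cre transgene, which is driven by the adiponectin promoter and deletes *Lmna* in adipocytes, so the liver itself was not targeted and the mice are a model of lipodystrophy. Mice were 12 to 14 weeks old at the start, were housed at 22°C, were fed a 60% high-fat diet for 4 weeks, and then received either vehicle or an AAV8 vector for mouse FGF21, and livers were collected 8 weeks later. GEO labels name the 2 arms of treatment vehicle and rescue, and the rescue arm was taken to be FGF21 from the methods of the study. *Fgf21* counts in liver do not show this vector: they ran from 3.14 to 7.39 CPM in the rescue arm of controls, within the range of 1.90 to 10.8 CPM of vehicle-treated controls, and from 2.19 to 9.99 CPM in the rescue arm of *Lmna* ADKO mice compared with 4.63 to 10.6 CPM under vehicle.

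The liver removes surplus amino acids by moving their amino groups to glutamate, releasing ammonia, and fixing that ammonia into urea, while the carbon skeletons are fed into gluconeogenesis, ketone formation, or the citric acid cycle. Periportal hepatocytes carry most of the urea cycle and of the catabolic enzymes, whereas pericentral hepatocytes capture the remaining ammonia as glutamine. Transcription of many of these enzymes follows glucagon, glucocorticoids, and feeding, through factors such as CREB, C/EBP, and the glucocorticoid receptor.

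Libraries held 19863304 to 21510054 counts, and *Lmna* itself ran from 15.7 to 22.1 CPM in vehicle-treated controls and from 23.6 to 30.98 CPM in vehicle-treated *Lmna* ADKO livers, which does not check a deletion made in another cell type. *Alb*, the defining product of hepatocytes, averaged 86149.7 CPM in vehicle-treated controls. In 3 libraries (FGF21-treated *Lmna* ADKO mouse 7, FGF21-treated control 3, and vehicle-treated control 3), long genes were low relative to short ones. Log2 CPM minus the median of the genotype had slopes on log2 exonic length of -0.331, -0.289, and -0.154, compared with -0.109 to 0.128 in the other libraries. In another, FGF21-treated *Lmna* ADKO mouse 3, the 44 genes averaged -0.63 log2 units relative to vehicle-treated controls, whereas the other 7 mice of its group lay between -0.19 and 0.0669. Calls of the 44 genes that changed without these libraries are given beside the genes. The mice are separate animals, and no pair of libraries within a group was close enough to be a duplicate. Pairs from different groups were not compared.

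Levels are in CPM, the counts of a gene relative to all counts of its library, with TMM-scaled library sizes, and a difference is a log2 fold change with its standard error (SE) from edgeR's quasi-likelihood test fitted to all genes and all 4 groups. Benjamini-Hochberg adjustment was made over the 23972 genes. A gene is called higher or lower at an adjusted p under 0.05 with more than a 1.5-fold change, and counts at an adjusted p under 0.05 alone are given as a looser rule.

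Because several members moved together between genotypes, the 250 bases upstream of the transcription start are printed for the 6 members with the smallest adjusted p among those with an entry in the RefSeq promoter table (build GRCm38.p6, 36 of the 44 members matched). They belong to *Agxt* at chr1:93134990-93135239 (plus strand), *Bcat2* at chr7:45569903-45570152 (plus strand), *Amdhd1* at chr10:93540034-93540283 (minus strand), *Ivd* at chr2:118861744-118861993 (plus strand), *Hpd* at chr5:123182724-123182973 (minus strand), and *Hal* at chr10:93488518-93488767 (plus strand). Each is written 5′ to 3′ on the strand of its gene and ends at the base before the RefSeq start site. The GENCODE gene used for the coordinates of the members begins 40 bases earlier for *Ivd* and 4 bases earlier for *Hpd*, so the last 40 and 4 bases of those windows lie inside the GENCODE gene, and for the other 4 both starts are the same base. Capitals mark matches, on either strand, to the CCAAT box (CCAAT), the TATA box (TATAAA), the cAMP response element (TGACGTCA), its shorter form (TGACG, which is also the start of the longer one), a C/EBP site (TTGCGCAA), part of a glucocorticoid response element (TGTTCT), or an HNF4 site (CAAAGTCCA).
Agxt: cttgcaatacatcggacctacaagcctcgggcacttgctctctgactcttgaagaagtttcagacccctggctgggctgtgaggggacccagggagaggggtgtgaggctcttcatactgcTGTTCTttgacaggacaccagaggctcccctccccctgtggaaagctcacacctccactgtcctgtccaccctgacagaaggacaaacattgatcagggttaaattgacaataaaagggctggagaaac
Bcat2: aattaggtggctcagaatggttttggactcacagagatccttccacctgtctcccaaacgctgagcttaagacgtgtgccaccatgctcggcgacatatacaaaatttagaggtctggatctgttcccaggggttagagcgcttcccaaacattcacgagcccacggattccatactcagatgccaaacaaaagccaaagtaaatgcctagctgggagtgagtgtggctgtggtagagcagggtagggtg
Amdhd1: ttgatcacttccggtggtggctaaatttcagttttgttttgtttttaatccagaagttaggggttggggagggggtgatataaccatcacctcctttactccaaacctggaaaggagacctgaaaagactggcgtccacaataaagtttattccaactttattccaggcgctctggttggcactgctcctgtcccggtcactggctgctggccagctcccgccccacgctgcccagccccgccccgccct
Ivd: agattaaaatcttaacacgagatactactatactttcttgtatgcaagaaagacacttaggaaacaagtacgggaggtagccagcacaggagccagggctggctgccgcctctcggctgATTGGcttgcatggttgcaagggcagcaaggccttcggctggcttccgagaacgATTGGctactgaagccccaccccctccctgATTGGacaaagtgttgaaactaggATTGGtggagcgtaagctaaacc
Hpd: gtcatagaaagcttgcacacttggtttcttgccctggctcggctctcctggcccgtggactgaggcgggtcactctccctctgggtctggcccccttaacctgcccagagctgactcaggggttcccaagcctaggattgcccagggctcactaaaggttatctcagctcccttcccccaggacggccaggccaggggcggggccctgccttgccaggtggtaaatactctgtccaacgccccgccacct
Hal: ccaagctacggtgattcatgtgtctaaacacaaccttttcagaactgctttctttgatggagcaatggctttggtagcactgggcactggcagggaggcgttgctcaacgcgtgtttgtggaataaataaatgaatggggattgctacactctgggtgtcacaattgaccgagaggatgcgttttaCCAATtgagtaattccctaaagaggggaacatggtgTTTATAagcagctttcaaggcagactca

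No motif was common to these 6 windows. *Ivd* holds 4 copies of CCAAT, all in reverse orientation. They begin 23, 47, 77, and 131 bases before the RefSeq start site, and the nearest lies inside the gene as GENCODE annotates it. *Hal* holds 1 CCAAT 64 bases before the start and a reversed TATAAA 28 bases before it. *Agxt* holds 1 TGTTCT, 129 bases before its start, and the windows of *Bcat2*, *Amdhd1*, and *Hpd* hold no match to the letters searched. Over all members with a window, CCAAT was present in 15 of 36 compared with 33.8% of 32851 promoters, TATAAA in 6 compared with 12.4%, TGACG in 3 compared with 17.8%, TGTTCT in 4 compared with 16.1%, CAAAGTCCA in 2 compared with 0.384%, and both the full cAMP response element and the C/EBP site in 0, compared with 1.55% and 0.164%. *Hal* (chr10:93488768-93519304) and *Amdhd1* (chr10:93523338-93540033), enzymes of the same pathway, lie next to each other on chromosome 10 in opposite orientation.

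Levels of the 44 genes in vehicle-treated controls spanned a wide range once divided by exonic length. *Hpd* was highest, with 1592 CPM per kb, followed by the urea cycle genes *Ass1* with 1236, *Arg1* with 609, and *Cps1* with 374 CPM per kb. Within their groups, the highest levels belonged to *Agxt* among transaminases (309 CPM per kb), *Tdo2* for tryptophan (227), *Uroc1* for histidine (151), *Sds* for serine, threonine, and glycine (154), *Bckdha* for branched-chain amino acids (169), and *Aldh4a1* for proline and lysine (109.7). Lowest were *Mccc1* with 5.08, *Bcat2* with 7.56, and *Sdsl* with 7.60 CPM per kb, and no member fell under 164 counts in any library. Together the members took 2.29% ± 0.252 (SD, n = 7) of all counts in vehicle-treated controls, 1.81% ± 0.203 (n = 6) in vehicle-treated *Lmna* ADKO mice, 2.45% ± 0.315 (n = 3) in FGF21-treated controls, and 2.09% ± 0.281 (n = 8) in FGF21-treated *Lmna* ADKO mice.

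**Figure D1:**
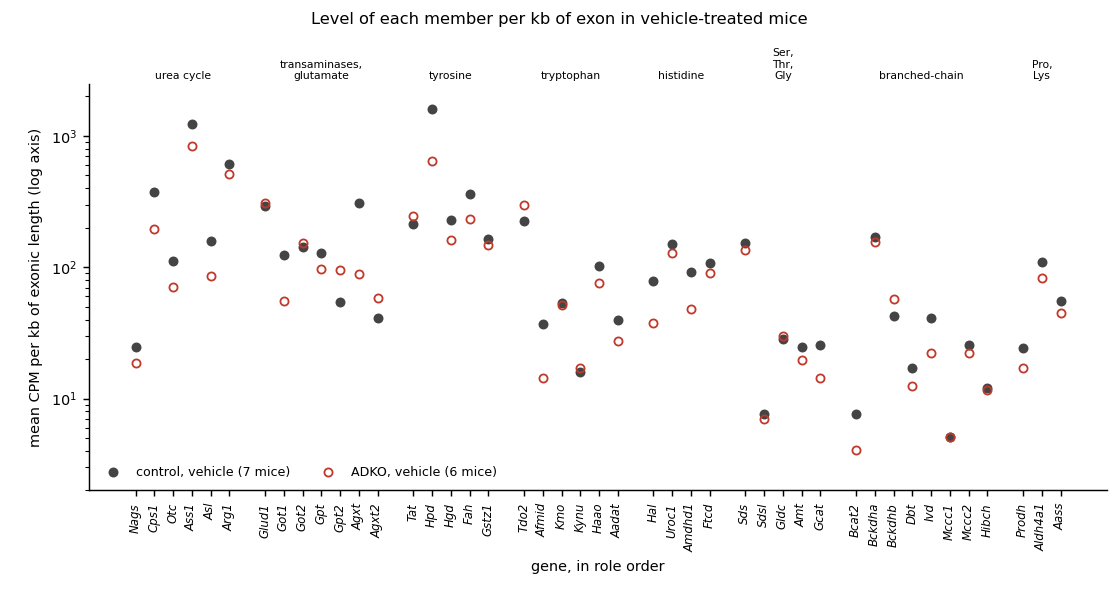
Mean CPM per kb of exonic length (vertical log axis) of the 44 genes in role order, with filled points for vehicle-treated controls and open points for vehicle-treated *Lmna* ADKO mice. *Hpd* stands highest at 1592 CPM per kb in controls, and the open points of *Agxt*, *Got1*, *Afmid*, and *Hal* lie well under the filled ones.

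The first comparison asked how adipocyte loss of *Lmna* changed these hepatic genes in vehicle-treated mice. In *Lmna* ADKO livers 13 of the 44 genes were called lower and 1 was called higher. The 13 were *Cps1*, *Otc*, and *Asl* of the urea cycle, the transaminases *Got1* and *Agxt*, *Hpd* and *Fah* of tyrosine breakdown, *Afmid* of tryptophan, *Hal* and *Amdhd1* of histidine, *Gcat* of threonine, and *Bcat2* and *Ivd* of branched-chain breakdown, and the 1 higher gene was *Gpt2*. Over all genes, 806 of 23972 were called lower (3.36%) and 1227 higher (5.12%), and of the 14699 genes that edgeR's filterByExpr keeps, 820 were called lower (5.58%). With an adjusted p under 0.05 alone, 20 members were lower and 3 higher, compared with 6.76% and 8.35% of all genes. The median log2 fold change of the 44 genes was -0.38, compared with 0.0027 over all genes, and 34 of them were below 0. In bulk liver RNA, fewer hepatocytes and less of an RNA per hepatocyte cannot be told apart, and the summed level of 10 hepatocyte markers ran from 115403 to 178745 CPM in vehicle-treated controls and from 97241 to 136334 CPM in vehicle-treated *Lmna* ADKO mice, with 3 of 10 called lower. The median log2 fold change of these 10 markers was -0.30, and 8 of 10 were below 0. The part of the marker levels in the differences of the 44 genes was not tested.

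Leaving out each library of the compared groups in turn gave 11 to 15 members lower and 1 higher, and 11 and 1 without the 3 libraries with low counts on long genes. The number in each mouse's label has 3 digits in 6 of 7 vehicle-treated controls and 4 digits in 5 of 6 vehicle-treated *Lmna* ADKO mice, and labels do not say whether this marks a cohort. Within mice with 3 digits (1 against 6), 36 of the 44 genes were lower in the *Lmna* ADKO mouse, and the median was -0.487 log2 units. Within those with 4 digits (5 against 1), 36 of 44 were lower in *Lmna* ADKO mice, with a median of -0.495. The 13 called genes were all lower in both, by medians of -1.10 and -0.90, but they had been picked in these same mice. Each split has 1 mouse on 1 side, so it cannot separate genotype from a cohort. The share of all genes below 0 was not counted within the splits. A fit with the number of digits as a covariate called 14 members lower and 1 higher, with *Got1* lost and *Aadat* and *Prodh* added.

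**Figure D2:**
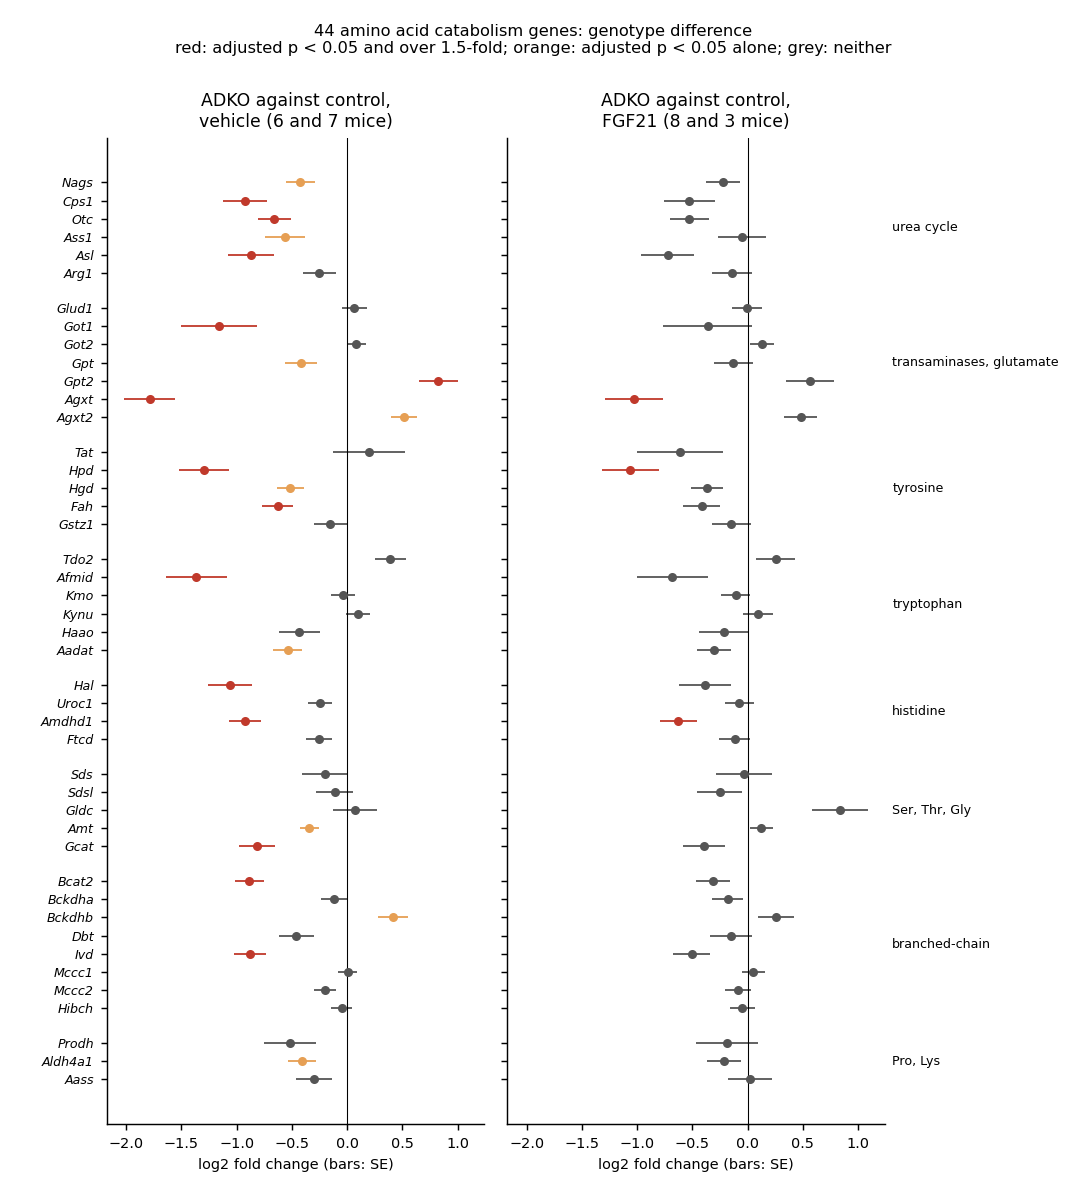
Log2 fold change with SE bars of each member between *Lmna* ADKO and control livers under vehicle (left, 6 and 7 mice) and under FGF21 (right, 8 and 3 mice), in role order. Red points were called at adjusted p and fold, 13 lower and 1 higher on the left and 3 lower on the right, orange points at adjusted p alone, and grey points at neither.

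Of the 6 urea cycle genes, 3 were called lower in vehicle-treated *Lmna* ADKO livers, 2 more passed at an adjusted p alone, and none was above 0. *Cps1* makes carbamoyl phosphate in mitochondria, the entry step of the cycle. Its level ran from 1652 to 2488 CPM (median 2150.2) in vehicle-treated controls and from 823 to 1651 CPM (median 1025) in vehicle-treated *Lmna* ADKO mice. The groups did not overlap, although *Lmna* ADKO mouse 4 lay just under the lowest control, and the log2 fold change was -0.93 (SE 0.20, edgeR adjusted p = 0.00155).

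*Otc* joins carbamoyl phosphate to ornithine. Controls ran from 369 to 606 CPM (median 480.2) and *Lmna* ADKO mice from 252 to 337 CPM (median 314), again with no overlap, and the log2 fold change was -0.66 (SE 0.15, edgeR adjusted p = 0.00256). This call was lost without the 3 libraries with low counts on long genes, where the log2 fold change of -0.58 fell short of the fold threshold.

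*Asl* releases arginine and fumarate from argininosuccinate. It ran from 408 to 1098 CPM (median 787) in controls and from 318 to 627 CPM (median 382) in *Lmna* ADKO mice, where mice 4 and 6 of the *Lmna* ADKO group exceeded the lowest control, and it fell by 0.87 on the log2 scale (SE 0.21, edgeR adjusted p = 0.00435). *Ass1*, which makes argininosuccinate, averaged 2984 ± 848 CPM (SD, n = 7) in controls and 2023 ± 309.9 CPM (n = 6) in *Lmna* ADKO mice (log2 fold change -0.56, edgeR adjusted p = 0.0324). *Nags*, whose product is the obligate activator of *Cps1*, averaged 70.7 and 52.8 CPM (log2 fold change -0.42, edgeR adjusted p = 0.025). *Arg1*, which yields urea, averaged 1357 ± 255 and 1140.4 ± 274 CPM and did not pass (log2 fold change -0.25, SE 0.15, edgeR adjusted p = 0.298).

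The transaminases split in direction. *Agxt*, which detoxifies glyoxylate by transamination with alanine, had the largest log2 fold change of the 44 genes. It ran from 465 to 658 CPM (median 497) in vehicle-treated controls and from 105 to 259 CPM (median 136) in vehicle-treated *Lmna* ADKO mice, so that every *Lmna* ADKO mouse lay under every control. The log2 fold change was -1.79 (SE 0.23, edgeR adjusted p = 8.99e-06), a 3.45-fold lower level. *Agxt2*, a mitochondrial enzyme of related activity, lay on the other side, with 129 ± 21.8 CPM (SD, n = 7) in controls and 185 ± 6.63 CPM (n = 6) in *Lmna* ADKO mice. These groups also did not overlap (log2 fold change 0.52, SE 0.12, edgeR adjusted p = 0.0025), but the change was short of 1.5-fold.

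*Got1* is the cytosolic aspartate transaminase, part of the malate-aspartate shuttle. It ran from 229 to 419.9 CPM (median 299.8) in controls and from 93.7 to 274 CPM (median 110.0) in *Lmna* ADKO mice, where mouse 4 alone reached into the control range. Its log2 fold change was -1.16 (SE 0.34, edgeR adjusted p = 0.0242), and the call was lost with the number of digits as a covariate and when vehicle-treated *Lmna* ADKO mouse 1, 2, 3, or 6 or vehicle-treated control 3 was left out, with log2 fold changes from -1.14 to -1.07. *Got2*, its mitochondrial counterpart, was at 693 ± 51.5 and 735 ± 35.1 CPM (log2 fold change 0.08, SE 0.09, edgeR adjusted p = 0.577).

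The alanine transaminases moved in opposite directions. *Gpt2*, the mitochondrial form, ran from 180.4 to 439 CPM (median 295) in controls and from 421 to 665 CPM (median 572) in *Lmna* ADKO mice, with overlap between the highest control and the lowest *Lmna* ADKO mice, and rose by 0.83 on the log2 scale (SE 0.17, edgeR adjusted p = 0.00131). *Gpt*, the cytosolic form, averaged 379 ± 69.9 and 283 ± 52.7 CPM (log2 fold change -0.42, edgeR adjusted p = 0.0492). *Glud1*, which releases ammonia from glutamate, averaged 1234 ± 117 and 1289 ± 155 CPM (log2 fold change 0.06, SE 0.11, edgeR adjusted p = 0.786).

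**Figure D3:**
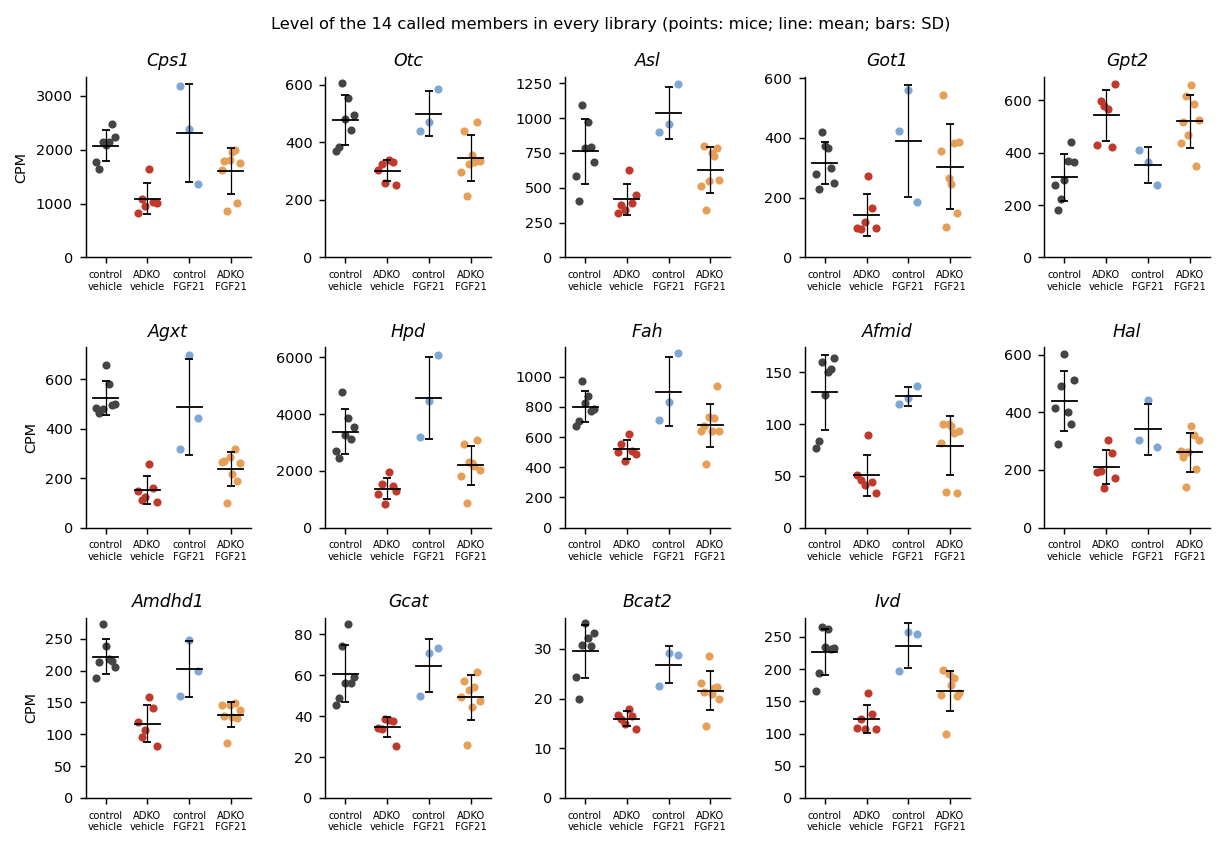
CPM of the 14 called members in every library, with 1 panel for each gene, points for mice, horizontal lines for group means, and bars for SD. *Agxt* lies between 465 and 658 CPM in vehicle-treated controls and between 105 and 259 CPM in vehicle-treated *Lmna* ADKO mice, and *Gpt2* is the panel in which the *Lmna* ADKO groups lie higher.

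Tyrosine is degraded in 5 steps, by *Tat*, *Hpd*, *Hgd*, *Gstz1*, and *Fah* in that order, and *Hpd*, *Hgd*, and *Fah* were lower. *Hpd*, which forms homogentisate, ran from 2444 to 4791 CPM (median 3267) in controls and from 847 to 1949 CPM (median 1377) in *Lmna* ADKO mice. No *Lmna* ADKO mouse reached the lowest control, and the log2 fold change of *Hpd* was -1.298 (SE 0.23, edgeR adjusted p = 0.000212). *Fah*, which splits fumarylacetoacetate, ran from 672 to 971 CPM (median 788) and from 439 to 619.9 CPM (median 504), with no overlap (log2 fold change -0.63, SE 0.14, edgeR adjusted p = 0.00255). Without vehicle-treated control 3, or without all 3 libraries with low counts on long genes, the log2 fold change of *Fah* was -0.57, under the fold threshold.

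*Hgd*, which opens the ring of homogentisate, averaged 602 ± 75.4 and 422 ± 44.8 CPM with no overlap (log2 fold change -0.51, edgeR adjusted p = 0.00348), short of 1.5-fold. *Tat*, the first enzyme, did not pass and varied widely, with 516 ± 124 CPM in controls and 592 ± 345 CPM in *Lmna* ADKO mice (log2 fold change 0.20, SE 0.33, edgeR adjusted p = 0.762). *Gstz1*, the isomerase before *Fah*, averaged 834 and 751 CPM (log2 fold change -0.15, SE 0.15, edgeR adjusted p = 0.541).

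Tryptophan genes showed 1 call among 6. *Afmid*, which turns formylkynurenine into kynurenine, ran from 76.7 to 163 CPM (median 151) in controls and from 33.03 to 89.4 CPM (median 45.3) in *Lmna* ADKO mice. Mouse 4 of the *Lmna* ADKO group exceeded the lower pair of controls, and the other 5 lay under every control. The log2 fold change was -1.37 (SE 0.28, edgeR adjusted p = 0.00158).

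*Aadat*, an aminotransferase for kynurenine and for the lysine intermediate aminoadipate, passed at an adjusted p alone, with 87.1 ± 10.1 and 60.02 ± 10.9 CPM (log2 fold change -0.54, edgeR adjusted p = 0.00433). *Tdo2*, the first enzyme of the route, averaged 880.5 ± 167 and 1156 ± 191 CPM (log2 fold change 0.39, SE 0.14, edgeR adjusted p = 0.0601). *Kmo* and *Kynu*, which act on kynurenine, had log2 fold changes of -0.04 (SE 0.11) and 0.10 (SE 0.11), and *Haao*, which opens the ring of hydroxyanthranilate, one of -0.43 (SE 0.19). None of these 3 passed.

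Histidine is degraded by *Hal*, *Uroc1*, *Amdhd1*, and *Ftcd* in that order, and *Hal* and *Amdhd1* were called lower. *Hal*, which releases ammonia from histidine, ran from 289.8 to 602 CPM (median 416) in controls and from 137 to 303 CPM (median 195) in *Lmna* ADKO mice. Only *Lmna* ADKO mouse 4 exceeded the lowest control, and the log2 fold change was -1.06 (SE 0.20, edgeR adjusted p = 0.000531). *Amdhd1*, its neighbour on chromosome 10, ran from 188 to 273 CPM (median 214) and from 81.2 to 159 CPM (median 113) with no overlap. It fell by 0.92 on the log2 scale (SE 0.14, edgeR adjusted p = 4.99e-05). *Uroc1* and *Ftcd* were at -0.25 (SE 0.11, edgeR adjusted p = 0.137) and -0.26 (SE 0.12, edgeR adjusted p = 0.148) on the log2 scale and did not pass.

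Among serine, threonine, and glycine genes, *Gcat* was called lower. *Gcat* acts in threonine breakdown to glycine, and it ran from 45.2 to 85.1 CPM (median 56.4) in controls and from 25.6 to 38.4 CPM (median 35.7) in *Lmna* ADKO mice, with no overlap. The log2 fold change was -0.82 (SE 0.16, edgeR adjusted p = 0.000862). The table holds a second, overlapping gene of this name at 3.33 CPM in controls and 4.69 CPM in *Lmna* ADKO mice, so the split of reads between them is uncertain.

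*Amt*, a subunit of the glycine cleavage system, passed at an adjusted p alone and did not overlap between groups, with 60.3 ± 6.95 and 47.6 ± 2.21 CPM (log2 fold change -0.34, edgeR adjusted p = 0.0061). *Gldc*, another subunit of that system, was at 0.07 (SE 0.20, edgeR adjusted p = 0.877). The neighbouring serine dehydratase genes *Sds* and *Sdsl* were at -0.20 (SE 0.21) and -0.11 (SE 0.17) on the log2 scale, with levels of 154 and 7.60 CPM per kb in controls, and neither passed.

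Of the 8 branched-chain genes, 2 were called lower. *Bcat2*, the mitochondrial branched-chain transaminase that is lowly expressed in liver, ran from 20.01 to 35.2 CPM (median 30.8) in controls and from 13.8 to 17.9 CPM (median 16.3) in *Lmna* ADKO mice, and no mouse overlapped (log2 fold change -0.89, SE 0.13, edgeR adjusted p = 2.19e-05). *Ivd*, the dehydrogenase of leucine breakdown, ran from 165 to 266 CPM (median 233) and from 106 to 163 CPM (median 116). The highest *Lmna* ADKO mouse lay just under the lowest control, and *Ivd* fell by 0.88 on the log2 scale (SE 0.14, edgeR adjusted p = 7.24e-05).

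The branched-chain ketoacid dehydrogenase, the committed step after transamination, did not move as one. Its subunit *Bckdhb* was higher at an adjusted p alone and did not overlap, with 77.1 ± 9.98 and 103 ± 6.45 CPM (log2 fold change 0.42, edgeR adjusted p = 0.0325). *Bckdha* was at -0.12 (SE 0.12) and *Dbt* at -0.46 (SE 0.16, edgeR adjusted p = 0.0501). *Mccc1* and *Mccc2*, which carboxylate the product of *Ivd*, were at 0.01 (SE 0.09) and -0.20 (SE 0.10), and *Hibch* of valine breakdown at -0.05 (SE 0.09), none of which passed.

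In proline and lysine breakdown, *Aldh4a1*, the second enzyme of proline oxidation, passed at an adjusted p alone with 538 ± 73.4 and 405 ± 45.3 CPM (log2 fold change -0.41, edgeR adjusted p = 0.0291). *Prodh*, the first, was at -0.52 (SE 0.23, edgeR adjusted p = 0.152), and *Aass* of lysine breakdown at -0.30 (SE 0.16, edgeR adjusted p = 0.254).

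Counting overlap alone, 11 members had every vehicle-treated *Lmna* ADKO mouse under every vehicle-treated control (*Agxt*, *Amdhd1*, *Amt*, *Bcat2*, *Cps1*, *Fah*, *Gcat*, *Hgd*, *Hpd*, *Ivd*, and *Otc*), compared with 894 of all genes (3.73%). For 2 members, *Agxt2* and *Bckdhb*, every *Lmna* ADKO mouse was above every control, compared with 1012 of all genes (4.22%). *Lmna* ADKO mouse 4 lay nearest to controls, with a mean over the 44 genes of -0.0443 log2 units relative to vehicle-treated controls, whereas the other 5 lay between -0.563 and -0.307. Controls 1 and 2 were the lowest of their group, at -0.219 and -0.277.

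**Figure D4:**
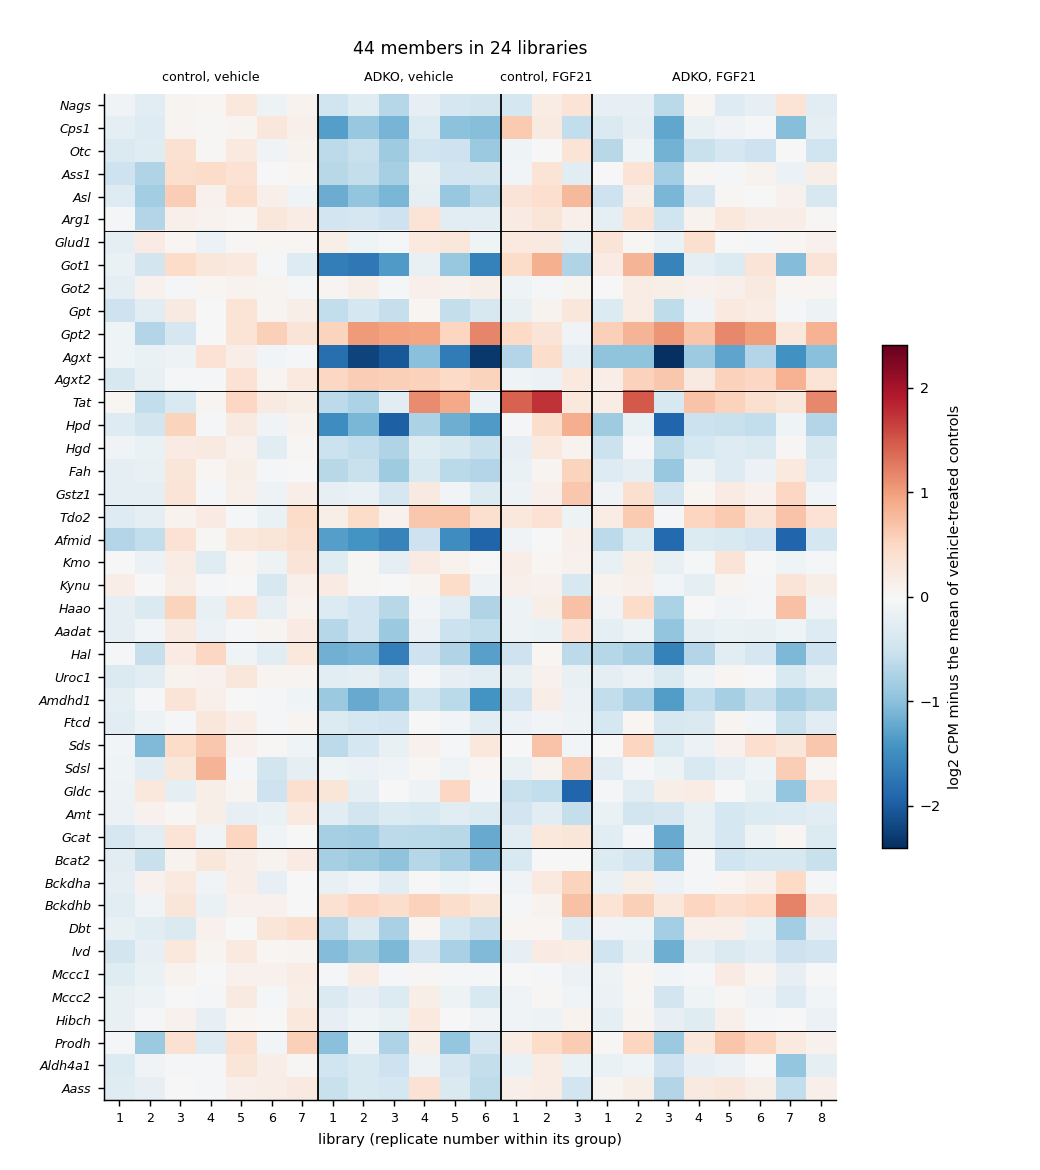
Log2 CPM of the 44 genes (rows, in role order) in each of 24 libraries (columns, by group), minus the mean of vehicle-treated controls for that gene. Blue marks lower and red higher levels, and vehicle-treated *Lmna* ADKO mouse 4 is paler and FGF21-treated *Lmna* ADKO mouse 3 bluer than the other mice of their groups.

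The second comparison asked whether the genotype difference was present in FGF21-treated mice, and it rests on 3 controls. *Agxt*, *Hpd*, and *Amdhd1* were called lower in FGF21-treated *Lmna* ADKO livers and 0 members were called higher, compared with 303 of all genes lower (1.26%) and 387 higher (1.61%). The median log2 fold change of the 44 genes was -0.16, and 34 were below 0. Over all genes the median was 0.0185, and 51.5% were above 0. With DESeq2, 4 members were called lower, the same 3 and *Asl*, and 1, *Gldc*, higher.

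*Agxt* was at 318, 698, and 442 CPM in the 3 FGF21-treated controls and ran from 98.1 to 319.8 CPM (median 264) in FGF21-treated *Lmna* ADKO mice. The highest *Lmna* ADKO mouse slightly exceeded the lowest control, and the log2 fold change was -1.03 (SE 0.26, edgeR adjusted p = 0.0228). *Hpd* was at 3211, 4459.7, and 6089 CPM in controls and ran from 879 to 3094 CPM (median 2238) in *Lmna* ADKO mice, without overlap, and the log2 fold change was -1.06 (SE 0.26, edgeR adjusted p = 0.0164). *Amdhd1* was at 159.8, 247, and 199.9 CPM in controls and ran from 86.3 to 149 CPM (median 133) in *Lmna* ADKO mice, also without overlap, with a log2 fold change of -0.63 (SE 0.17, edgeR adjusted p = 0.029).

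These 3 calls depended on single libraries. None of them remained without FGF21-treated control 2 or control 3, where the log2 fold changes of *Agxt* were -0.68 and -1.10, of *Hpd* -1.08 and -0.81, and of *Amdhd1* -0.46 and -0.64. None remained in a fit of only these groups, with the number of digits as a covariate, without the 3 libraries with low counts on long genes, or in mice with 4-digit numbers only. Without FGF21-treated *Lmna* ADKO mouse 3, *Amdhd1* fell short of the fold threshold at -0.57, and 2 members were called lower.

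Among the others that had been called under vehicle, *Asl* was at 902, 962, and 1247 CPM in FGF21-treated controls, above all FGF21-treated *Lmna* ADKO mice (341 to 800.4 CPM), but it did not pass by edgeR (log2 fold change -0.72, SE 0.24, adjusted p = 0.0908), whereas DESeq2 called it lower (log2 fold change -0.74). *Afmid* was at 119, 125, and 136 CPM in controls, again above all 8 *Lmna* ADKO mice (33.4 to 100.4 CPM), with a log2 fold change of -0.68 (SE 0.32, edgeR adjusted p = 0.279). With *Hpd* and *Amdhd1*, these made 4 members whose FGF21-treated groups did not overlap in the lower direction, compared with 568 of all genes (2.37%).

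*Cps1* and *Got1* varied widely among the 3 FGF21-treated controls. *Cps1* was at 3191, 2385, and 1371 CPM there and ran from 869 to 2005 CPM (median 1774) in FGF21-treated *Lmna* ADKO mice (log2 fold change -0.53, SE 0.23, edgeR adjusted p = 0.227). *Got1* was at 423, 559, and 187 CPM in controls and ran from 101 to 542 CPM (median 309.7) in *Lmna* ADKO mice (log2 fold change -0.36, SE 0.40, edgeR adjusted p = 0.708). For both genes the groups overlapped, with 1 of the 3 controls inside the range of the *Lmna* ADKO mice for *Cps1* and 2 of the 3 for *Got1*. Both values depended on single controls: without FGF21-treated control 1 or control 3 the log2 fold change of *Cps1* was -0.23 or -0.80, and without control 2 or control 3 that of *Got1* was -0.0083 or -0.698.

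*Otc*, *Ivd*, *Fah*, *Gcat*, *Hal*, and *Bcat2* had log2 fold changes of -0.53, -0.51, -0.41, -0.39, -0.38, and -0.31 in FGF21-treated mice, with SE from 0.153 to 0.235. None passed with all libraries, and their FGF21-treated controls were at 437, 472, and 586 CPM for *Otc*, 196, 258, and 255 CPM for *Ivd*, 713, 833, and 1156 CPM for *Fah*, 49.6, 70.8, and 73.1 CPM for *Gcat*, 303, 442, and 278 CPM for *Hal*, and 22.6, 29.1, and 28.8 CPM for *Bcat2*. In FGF21-treated *Lmna* ADKO mice, *Otc* ran from 213 to 470.4 CPM (median 334), *Ivd* from 99.04 to 198 CPM (median 169), and *Fah* from 425 to 938 CPM (median 657). *Gcat* ran from 25.7 to 61.5 CPM (median 50.99), *Hal* from 139 to 353 CPM (median 263), and *Bcat2* from 14.4 to 28.5 CPM (median 21.7) in the same mice. All 6 therefore overlapped between FGF21-treated groups. *Otc* was called lower without FGF21-treated *Lmna* ADKO mouse 7, which had low counts on long genes and the highest *Otc* of its group (log2 fold change -0.62). Leaving out each library of these groups moved the log2 fold change of *Hal* from -0.51, without FGF21-treated control 3, to -0.15, without control 2.

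*Gpt2* was at 412, 367, and 277 CPM in FGF21-treated controls and ran from 351 to 659 CPM (median 522) in FGF21-treated *Lmna* ADKO mice (log2 fold change 0.56, SE 0.22, edgeR adjusted p = 0.159), with overlap. *Gldc*, the glycine decarboxylase of the cleavage system, had the highest positive log2 fold change of the members in this comparison, 0.84 (SE 0.25, edgeR adjusted p = 0.0579), with 118, 114, and 45.4 CPM in controls and 89.8 to 218 CPM in *Lmna* ADKO mice. FGF21-treated control 3 and FGF21-treated *Lmna* ADKO mouse 7, the lowest of each group, are both libraries with low counts on long genes. *Gldc* was called higher without that *Lmna* ADKO mouse, without FGF21-treated control 1, with filterByExpr, with DESeq2, and with the length slope as a covariate, and was not called without FGF21-treated control 3 or without the 3 libraries with low counts on long genes.

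The next comparisons, one per genotype, asked what FGF21 did within each genotype. They share the vehicle groups with the first comparison and the FGF21 groups with the second, so each is given by its own values. In controls, 0 members were called in either direction by edgeR, compared with 13 of all genes (0.0542%), and 3 of 44 members had an unadjusted p under 0.05, compared with 1476 of all genes (6.16%). DESeq2 also called 0 members. Named after their values were seen, the 3 were *Amt* (log2 fold change -0.44, unadjusted p = 0.000358, edgeR adjusted p = 0.234), *Gldc* (-0.91, unadjusted p = 0.00141, edgeR adjusted p = 0.381), and *Tat* (1.22, unadjusted p = 0.00478, edgeR adjusted p = 0.496).

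*Tat*, an enzyme induced by glucocorticoids and glucagon, was at 1341, 1668, and 596 CPM in FGF21-treated controls, where mice 1 and 2 lay above all vehicle-treated controls (332 to 708 CPM) and mouse 3 lay among them. *Amt* was at 43.7, 49.6, and 40.1 CPM in FGF21-treated controls and 52.02 to 70.3 CPM in vehicle-treated controls, with no overlap. *Gldc* was likewise below, at 118, 114, and 45.4 CPM compared with 120.3 to 223 CPM. These were the 2 members without overlap in the lower direction, compared with 162 of all genes (0.676%).

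In *Lmna* ADKO mice, 0 members were called and 0 of all genes (0%) were called by edgeR, and DESeq2 also called 0 members. Of the 44 members, 15 had an unadjusted p under 0.05, all of them in the higher direction, compared with 1608 of all genes in either direction (6.71%). The log2 fold change was above 0 for 38 of 44 members and for 50.6% of all genes, and its median over the members was 0.24. In lists described below, it was above 0 for 41 of 51 other enzymes (median 0.11) and 16 of 22 transporters (0.11). It was also above 0 for 13 of 22 regulators (0.04), 10 of 12 pericentral genes (0.28), and 5 of 10 periportal genes (-0.02). The median of 10 hepatocyte markers was 0.25. A difference between the members and these lists was not tested. Across the alternatives, 34 to 42 members were above 0, 13 to 22 had an unadjusted p under 0.05, and the median ran from 0.17 to 0.31. The summed hepatocyte markers ran from 96645 to 180500.0 CPM in FGF21-treated *Lmna* ADKO mice and from 97241 to 136334 CPM in vehicle-treated ones, with 9 of 10 markers above 0 and 0 called, and their part in these values was not tested. Within mice with 3-digit numbers (4 against 1) 39 of 44 were above 0, and within those with 4-digit numbers (4 against 5) 40 of 44. The first of these rests on 1 vehicle-treated mouse, and the share of all genes above 0 was not counted within the splits.

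**Figure D5:**
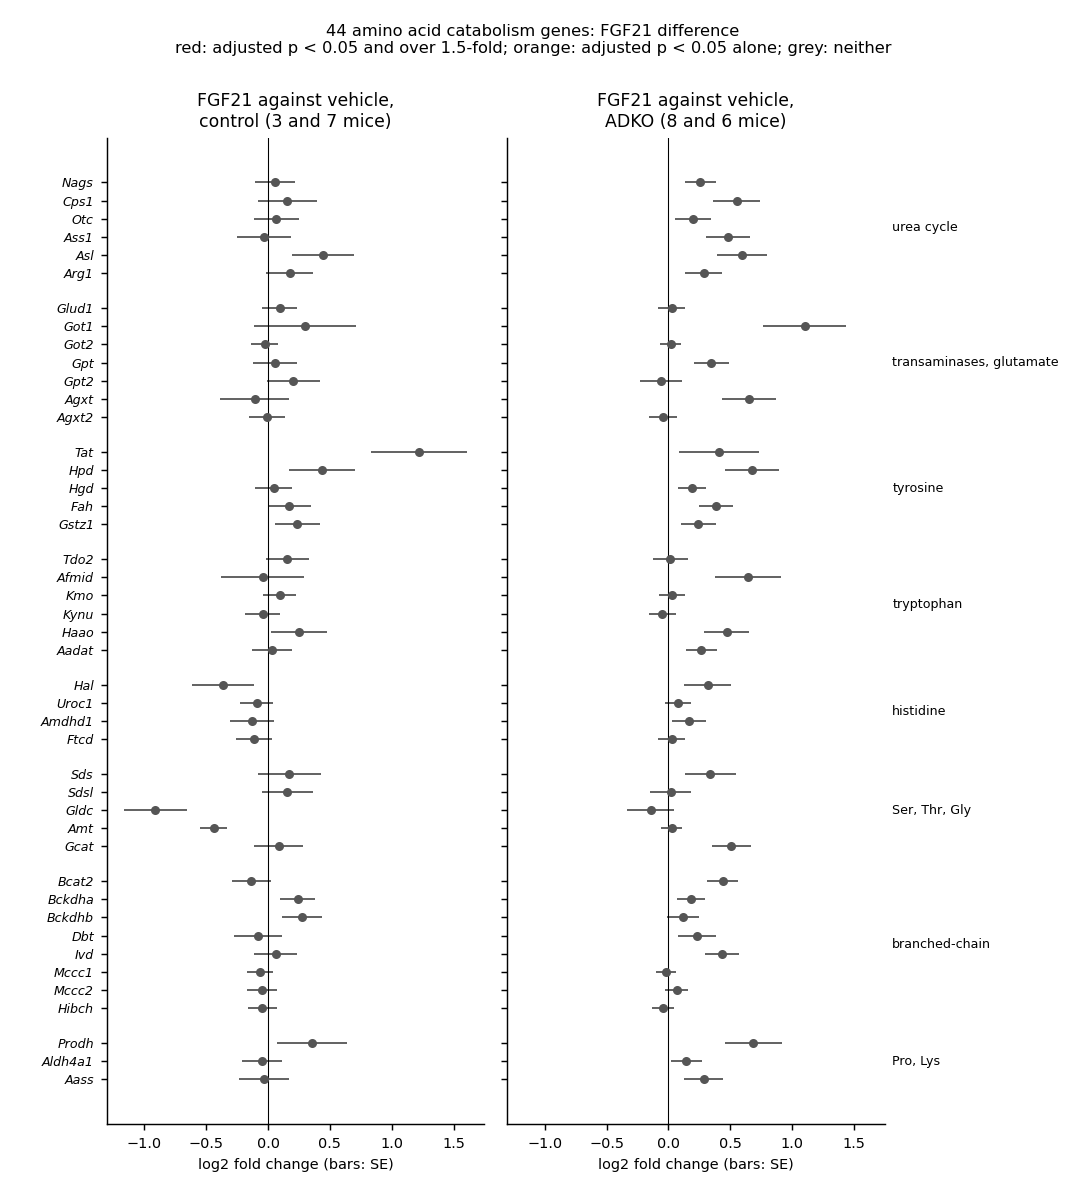
Log2 fold change with SE bars of each member between FGF21- and vehicle-treated livers of controls (left, 3 and 7 mice) and *Lmna* ADKO mice (right, 8 and 6 mice), in role order. No point reached an adjusted p of 0.05 on either side, and 38 of 44 lie above 0 on the right compared with 25 of 44 on the left. Of all genes, 50.6% were above 0 in *Lmna* ADKO mice and 46.8% in controls.

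*Got1* had the largest log2 fold change with FGF21 in *Lmna* ADKO mice, 1.10 (SE 0.34, unadjusted p = 0.00344, edgeR adjusted p = 0.619), from 141 ± 69.8 CPM (SD, n = 6) to 303 ± 142 CPM (n = 8). Its FGF21-treated mice ranged from 101 to 542 CPM, with mouse 3 and mouse 7 the lowest at 101 and 149 CPM. *Bcat2* had the smallest p, with 15.96 ± 1.45 and 21.6 ± 3.89 CPM (log2 fold change 0.44, SE 0.13, unadjusted p = 0.00166, edgeR adjusted p = 0.567).

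Urea cycle genes were all above 0 in this comparison, with log2 fold changes from 0.20 to 0.59. *Cps1* averaged 1094 ± 288 CPM with vehicle and 1604 ± 427 CPM with FGF21 (log2 fold change 0.55, SE 0.19, unadjusted p = 0.0073, edgeR adjusted p = 0.691). *Asl* averaged 417 ± 112 and 628 ± 162 CPM (0.59, SE 0.20), and *Ass1* 2023 ± 309.9 and 2823 ± 566 CPM (0.48, SE 0.17). The unadjusted edgeR p of *Asl* and *Ass1* was 0.00647 and 0.0102. None of these 3 differences passed once p was adjusted over all genes.

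*Agxt* averaged 152 ± 56.9 CPM with vehicle and 238 ± 69.2 CPM with FGF21 in *Lmna* ADKO mice (log2 fold change 0.65, SE 0.22, unadjusted p = 0.00684, edgeR adjusted p = 0.682), and *Hpd* 1378 ± 372 and 2199 ± 688 CPM (0.67, SE 0.22). *Prodh*, the first enzyme of proline oxidation, averaged 132 ± 43.6 and 213 ± 58.2 CPM (0.69, SE 0.23, unadjusted p = 0.00603). The other 7 with an unadjusted p under 0.05 were *Gpt*, *Fah*, *Afmid*, *Haao*, *Aadat*, *Gcat*, and *Ivd*, with log2 fold changes from 0.27 to 0.64. *Gpt2*, *Agxt2*, *Gldc*, *Kynu*, *Mccc1*, and *Hibch* were the 6 members below 0, from -0.14 to -0.02.

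Leaving out FGF21-treated *Lmna* ADKO mouse 3 raised the number of members with an unadjusted p under 0.05 to 22. It also brought 1 member to a call. That gene was *Gcat*, with a log2 fold change of 0.60 (SE 0.13, edgeR adjusted p = 0.0414), and over all genes 21 were then called higher and 40 lower. No other alternative called a member in this comparison. Mouse 3 had the lowest mean over the members in its group, so leaving it out raises their average log2 fold change by construction. The higher count and the call are therefore no separate test of FGF21.

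The difference between the FGF21 effects of both genotypes was tested as an interaction. It uses the same controls, in which FGF21 and a possible cohort cannot be separated. By edgeR 0 members passed, compared with 1 of all genes (0.00417%), and 5 of 44 members had an unadjusted p under 0.05, compared with 1165 of all genes (4.86%). Named for this after their values were seen, these were *Amt* (interaction 0.47 on the log2 scale, unadjusted p = 0.00191, edgeR adjusted p = 0.845), *Bcat2* (0.57, unadjusted p = 0.00875), *Gldc* (0.77, unadjusted p = 0.0218), *Hal* (0.68, unadjusted p = 0.0401), and *Agxt* (0.76, unadjusted p = 0.0446).

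Of 52 other enzymes of amino acid metabolism, listed apart from the 44, 51 were tested. In vehicle-treated *Lmna* ADKO livers, where 3.36% of all genes were called lower and 5.12% higher, 10 of these enzymes were called lower and 2 higher. By adjusted p, the first 6 were *Gls2*, the liver glutaminase (426 and 204 CPM, log2 fold change -1.06), *Aspg*, an asparaginase (232 and 138 CPM, log2 fold change -0.75), *Oat*, which links ornithine to glutamate (1261 and 600.2 CPM, log2 fold change -1.07), *Shmt1*, which interconverts serine and glycine (265 and 176 CPM, log2 fold change -0.59), *Acmsd*, of the tryptophan route (7.16 and 3.28 CPM, log2 fold change -1.12), and *Prodh2*, of hydroxyproline oxidation (293 and 179.9 CPM, log2 fold change -0.70), with edgeR adjusted p from 0.00013 to 0.00119. All 6 were lower. The median log2 fold change of the 51 genes was -0.16. In FGF21-treated mice 3 were called lower, *Acmsd*, *Gls2*, and *Oat*, with log2 fold changes of -0.94, -0.74, and -0.85 and edgeR adjusted p of 0.04, 0.04, and 0.0265, and FGF21 itself called 0 in either genotype.

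Under vehicle, where 3.36% of all genes were called lower and 5.12% higher, 6 of 22 amino acid transporters were called lower and 0 higher. These were *Slc38a3*, a glutamine carrier (1926 and 1031 CPM, log2 fold change -0.90, edgeR adjusted p = 0.000257), *Slc25a22*, a mitochondrial glutamate carrier (-0.69, edgeR adjusted p = 0.00124), *Slc43a1*, *Slc16a10*, which carries aromatic amino acids, *Slc1a2*, a glutamate carrier, and *Slc6a12*. The last 4 had log2 fold changes of -1.76, -0.79, -0.84, and -0.88. In FGF21-treated mice *Slc16a10* (-0.74, edgeR adjusted p = 0.0338) and *Slc1a2* (-0.83, edgeR adjusted p = 0.0209) were called lower and *Slc7a8* (1.03, edgeR adjusted p = 0.0148) higher.

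Of 22 regulators of these genes, 3 were called lower under vehicle, compared with 3.36% of all genes. At an adjusted p alone, 7 were lower and 2 higher, compared with 6.76% and 8.35% of all genes. Of the 3, 2 are given here, the transcription factors *Tbx3* (35.4 and 14.3 CPM, log2 fold change -1.31, edgeR adjusted p = 0.00132) and *Foxa2* (-0.80, edgeR adjusted p = 0.00347). Named after their values were seen, the glucagon receptor *Gcgr* was at -0.42 (edgeR adjusted p = 0.00396) and the glucocorticoid receptor *Nr3c1* at -0.08 (SE 0.13, edgeR adjusted p = 0.735), neither of which was called.

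Genes of other hepatic zones were read beside the members. Some of them also stand in the lists above (*Gls2*, *Etnppl*, *Glul*, *Oat*, *Slc1a2*, and *Rhbg*). Over all genes, 3.36% were called lower and 5.12% higher under vehicle. Of 10 periportal genes outside the 44, 2 were called lower (*Gls2* and *Igfals*, the latter with 174 and 59.8 CPM and a log2 fold change of -1.54) and 1 higher (*Hsd17b13*, 0.65) under vehicle, with a median log2 fold change of -0.18. Of 12 pericentral genes, 7 were called lower and 0 higher, with a median of -0.75, and 5 were also called lower in FGF21-treated mice. By adjusted p under vehicle, the first 6 were *Cyp1a2* (317 and 117 CPM, log2 fold change -1.44, edgeR adjusted p = 7.67e-06), *Oat*, *Lhpp* (-0.80, edgeR adjusted p = 0.000496), *Cyp2c29* (-1.42, edgeR adjusted p = 0.0014), *Cyp2e1* (-0.88, edgeR adjusted p = 0.0018), and *Slc1a2*. Those called with FGF21 were *Cyp1a2*, *Lhpp*, *Slc1a2*, *Oat*, and *Cyp2e1*, from -1.12 to -0.75 on the log2 scale, and the periportal genes called with FGF21 were *Igfals* (-0.83) and *Gls2*. Lower calls were thus found in lists of both zones, for 7 of 12 pericentral and 2 of 10 periportal genes. Of the periportal ones, *Gls2* is itself an amino acid enzyme listed above. The members were not shown to differ from either list.

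Markers of cell types also moved with genotype. Beside the hepatocyte markers given above, the sum of 8 stellate cell and fibroblast markers ran from 231 to 343 CPM in vehicle-treated controls and from 313 to 480.5 CPM in vehicle-treated *Lmna* ADKO mice, with 4 of 8 called higher, and that of 6 cholangiocyte markers from 27.1 to 51.2 CPM and from 85.8 to 196 CPM, with 2 of 6 called higher (*Spp1* and *Cftr*). The sum of 8 macrophage markers ran from 419 to 612 and from 278 to 486 CPM with 1 called higher (*Gpnmb*), that of 6 endothelial markers from 217 to 273 and from 207 to 262 CPM with 1 called higher (*Lyve1*), and that of 6 lymphocyte markers from 6.74 to 12.1 and from 4.77 to 10.7 CPM with 0 called. The adipocyte markers *Adipoq*, *Lep*, *Plin1*, and *Retn* together reached at most 1.03 CPM in vehicle-treated controls and 0.18 CPM in vehicle-treated *Lmna* ADKO mice, whereas *Cidec*, which fat-laden hepatocytes also express, averaged 2.88 and 115 CPM. The 2 kidney genes in the table together reached at most 0.774 CPM in both groups. The part of these shifts in the levels of the 44 genes was not tested.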

How the data were processed

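Poly(A)-selected, dUTP-stranded liver RNA-Seq libraries were made from 24 mice. The deposited table holds whole-number counts per gene, not normalized, for 1 column per mouse. The submitters' processing notes list cutadapt 4.8, FastQC 0.11.8, STAR 2.7.8a, RSEM 1.3.3, and GRCm38, the methods of the study give Ensembl release 102 and the removal of genes at 0 in every library, and since RSEM estimates counts, the values may be rounded estimates that split reads between overlapping genes. Of 23972 identifiers, 23926 were matched to a symbol and an exonic length. Column names matched sample labels, and 0 columns were left without a sample. Totals ran from 19863304 to 21510054, and the lowest count of any member in any library was 164.

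Groups came from the genotype and treatment labels. Counts were analyzed with edgeR 4.0.16 in R 4.3.3, with TMM scaling and 1 fit of 4 groups to all genes with no filter on low counts. A robust quasi-likelihood F-test with Benjamini-Hochberg adjustment was used. The prior count of 2 applied only to log2 CPM values, not to the test. SE was the log2 fold change over the square root of F. Alternatives were DESeq2 1.42.0, its size factors in edgeR, filterByExpr, and only the groups compared. Others took as a covariate the number of digits in the animal number, or each library's slope on exonic length. The rest left out 3 libraries, left out each library, or, chosen after seeing the data, kept only mice with 4-digit numbers. The code was tested on simulated data. Over 67 pairs of libraries of 1 group, chi-square per degree of freedom ran from 14.1 to 196, so none was a duplicate. P-values measure the spread between mice, and cohort or litter is not given in the sources used here.

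The members and the other gene lists were chosen with earlier results of these data known. Members called in any comparison were named with values by library, those with an adjusted p under 0.05 with means, and up to 6 called genes per other list by adjusted p. Members given for the FGF21 comparisons and the remaining members of each role were named after their values were seen. The values of 1 regulator that the rule for named genes would print are not reported here.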

Additional observations from a re-analysis of the deposited data

Results flagged for a closer look

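Dixon's criterion was applied to each of the 14 called genes in groups of 4 to 10 mice. It sets the gap between the highest or lowest value and its nearest neighbour against the range. In 6 of 42 groups of values, a value was set apart, where chance gives about 1 in 20 for independent groups. These groups were not independent, since the genes share the same libraries. FGF21-treated *Lmna* ADKO mouse 3 was the low value in 5 of the 6. It had 98.1 CPM for *Agxt*, where the other 7 mice ran from 189 to 319.8 CPM, and 879 CPM for *Hpd*, where they ran from 1830.0 to 3094 CPM. For *Amdhd1* it had 86.3 CPM compared with 126 to 149 CPM, for *Gcat* 25.7 CPM compared with 44.6 to 61.5 CPM, and for *Ivd* 99.0 CPM compared with 159 to 198 CPM. The other was *Gcat* at 25.6 CPM in vehicle-treated *Lmna* ADKO mouse 6, where the other 5 mice ran from 33.5 to 38.4 CPM. The cause was not tested.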

How the results depend on the processing

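For the 14 genes called between genotypes under vehicle, 271 of 280 values under the alternatives kept both direction and call, and the 9 that lost the call belonged to *Got1*, *Fah*, and *Otc*. Including the 3 calls in FGF21-treated mice, 28 of 337 values lost the call and 0 changed direction. Under vehicle, an adjusted p alone gave 20 lower and 3 higher, and leaving out each library of the compared groups, as in every comparison here, 11 to 15 lower and 1 higher. In FGF21-treated mice, 0 were lower with the animal number digits as a covariate, with only 4-digit numbers, with only the groups compared, or without the 3 libraries, 1 was higher with DESeq2, filterByExpr, or the length slope, and leaving out each library gave 0 to 4 lower and 0 to 1 higher. With FGF21 in *Lmna* ADKO mice, leaving out each library gave 0 to 1 higher. In all other alternatives these counts were within 1.5 times those reported.

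Direction changed only in values that were never called. With the digits covariate these were, for FGF21 in controls, *Cps1* -0.0251, *Otc* -0.0541, and *Ivd* -0.0213, and, for FGF21 in *Lmna* ADKO mice, *Gpt2* 0.00838. With the length slope they were *Otc* -0.0599, *Gcat* -0.0371, and *Ivd* -0.00831 in controls, and without the 3 libraries *Otc* -0.000954 in controls and *Gpt2* 0.000726 in *Lmna* ADKO mice. Leaving out each library in controls, log2 fold changes ran from -0.15 to 0.42 for *Cps1*, -0.0691 to 0.15 for *Otc*, -0.0525 to 0.63 for *Got1*, -0.46 to 0.12 for *Agxt*, -0.0528 to 0.31 for *Fah*, -0.14 to 0.0228 for *Afmid*, -0.30 to 0.0132 for *Amdhd1*, -0.0153 to 0.24 for *Gcat*, and -0.00562 to 0.18 for *Ivd*, and in *Lmna* ADKO mice from -0.12 to 0.00666 for *Gpt2*. The cause was not tested.

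No paired analysis was possible because the groups share no replicate number in the labels. With 3 FGF21-treated controls, the comparisons that use them have the widest SE.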
